A study of Mus musculus with 12 samples.

Results

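The immediate early transcription factors described here are 10 genes, Fos, Fosb, Jun, Junb, Jund, Egr1, Egr2, Egr3, Nr4a1 and Ier2, out of 29428 gene names carried by the array outside its noncoding RNA probes. They were chosen by name, and every non-control spot with one of these names was taken, which gave 13 probes, 1 for each of 8 genes, 2 for Junb and 3 for Ier2. Each gene was read from its brightest probe. Signals are log2 values of the scanner's background-corrected intensity, from which the array's own 75th percentile was subtracted, and all 13 probes were well above background on all 12 arrays.

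Immediate early genes are transcribed without new protein synthesis when a cell receives a signal, and most of their mRNAs are short-lived. Mitogen-activated protein kinases activate ternary complex factors and CREB, which are bound beforehand to serum response elements and cyclic AMP response elements near these genes. FOS and JUN proteins pair to form AP-1, EGR proteins are zinc finger factors that recruit the NAB corepressors, and NR4A1 (Nur77) is an orphan nuclear receptor widely used to report antigen receptor signaling in B cells. In B cells these genes are best known as early targets of the B cell receptor.

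The arrays measured total RNA from resting B (RB) cells, which were selected as CD43-negative cells from spleens of female BALB/c mice aged 6 weeks and cultured for 4 h. The 6 groups of 2 arrays were unstimulated cells and cells that received Pam2CSK4, a synthetic lipopeptide ligand of TLR-2, an antibody to the costimulatory molecule CD86, both of these (TLR2.CD86), an antibody to CD40, or anti-CD40 together with Pam2CSK4, named TLR2.CD40 here. All groups were otherwise the same cells, the isotype control antibody was not analysed here, and the labels do not say whether the 2 arrays of a group came from separate mice, so the p-values measure the spread between these arrays. The comparisons ask how each signal alone, and TLR-2 with a costimulatory signal, left these genes at 4 h.

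Arrays differed in ways the groups do not explain. Slide 1 held 8 arrays, both unstimulated and both TLR2.CD40 arrays and replicate 1 of the other groups, and slide 2 held replicate 2 of Pam2CSK4, anti-CD86, TLR2.CD86 and anti-CD40. With slide as a block, Fosb was lower on slide 2 by a log2 difference of -0.36 (limma adjusted p = 0.00134) and Egr2 by -0.19 (adjusted p = 0.0211). The term for Fos, Jun, Egr1, Egr3 and the brightest Ier2 probe did not pass. For the other Ier2 probes it did, at -0.31 (adjusted p = 0.00224) and 0.27 (adjusted p = 0.0038). Over all probes the slide term passed for 18062 of the 31601 tested. Between 46.6% and 60.6% of probes were well above background on an array, with replicate 2 of anti-CD40 the highest. All 9 B cell markers, Cd79a and Cd79b among them, were well above background on every array, as were 7 of 8 T cell, 6 of 7 NK cell and 10 of 10 myeloid markers, and 3 of the 5 red cell markers on the array.

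All values below are relative signals within bulk RNA, in which fewer cells of a type and less RNA per cell cannot be told apart. Of the 10 genes, 3 could not be compared. Junb, a JUN protein that can restrain JUN, and Nr4a1 were saturated on all 12 arrays, with processed signals of 61877 to 67986 for the brightest Junb probe and 61065 to 65456 for Nr4a1. Their intensity therefore lay at the ceiling of the scanner in unstimulated and stimulated cells alike. Jund, a JUN family member that is expressed broadly, was saturated on 10 arrays and was below saturation only on both TLR2.CD40 arrays, at 59667 and 54954. After scaling, Jund measured 7.79 and 7.88 on these arrays and 7.72 and 7.85 on the saturated unstimulated arrays, so no fold change is given for it.

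**Figure D1:**
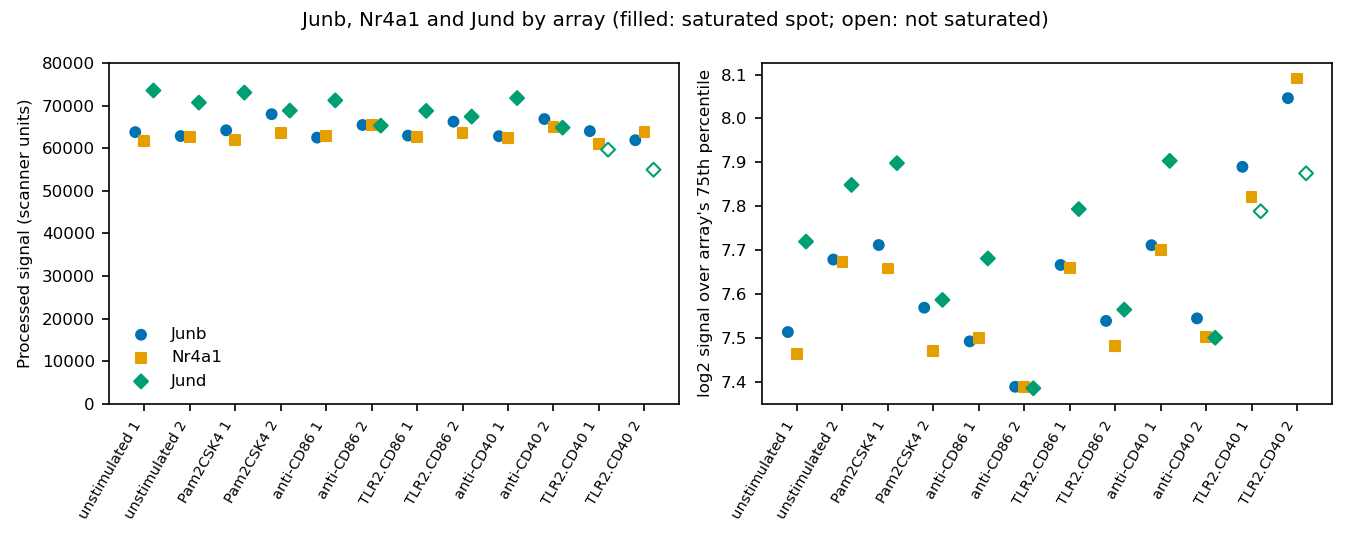
Processed signal (left, linear axis) and log2 signal over the array's 75th percentile (right) of Junb, Nr4a1 and Jund on each of the 12 arrays, with saturated spots filled. Signals of Junb and Nr4a1 lie in a narrow band from 61065 to 67986, and their spread in the right panel comes mostly from the scaling of each array. Jund ranges from 54954 to 73554 before scaling.

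Counted as they stand, the scaled values of the saturated probes passed no test without the slide term. With slide as a block Junb would have been called higher in TLR2.CD40 than in unstimulated cells (log2 difference 0.37, adjusted p = 0.00845) and Nr4a1 likewise (0.39, adjusted p = 0.0228). The 75th percentiles of the TLR2.CD40 arrays, 269.9 and 234.1, were lower than those of the unstimulated arrays, 349 and 306.7, and a constant ceiling divided by a smaller number is larger. The 3 saturated genes were left out of every count below, which leaves 7 genes.

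The 7 genes differed in the direction of their change. Egr1, Egr2 and Fos stood highest in unstimulated cells, Jun rose with TLR2.CD40, and Fosb, Egr3 and the brightest Ier2 probe passed no test against unstimulated cells without the slide term. Among the 6 groups, 3 of the 7 genes differed (Egr2, adjusted p = 0.0308, Jun, 0.0276, and Egr1, 0.0384), against 20.4% of the 31601 probes tested. Fos missed this threshold with an adjusted p of 0.0686. This count was 0 with median normalization, without a filter on dim probes, and without either unstimulated, either anti-CD86 or either TLR2.CD40 array. It was 5 with slide as a block. The share of all probes is not given for these alternatives. Slide as a block also raised the share of all probes called in TLR2.CD86 against unstimulated cells, from 10.8% to 35.1%.

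**Figure D2:**
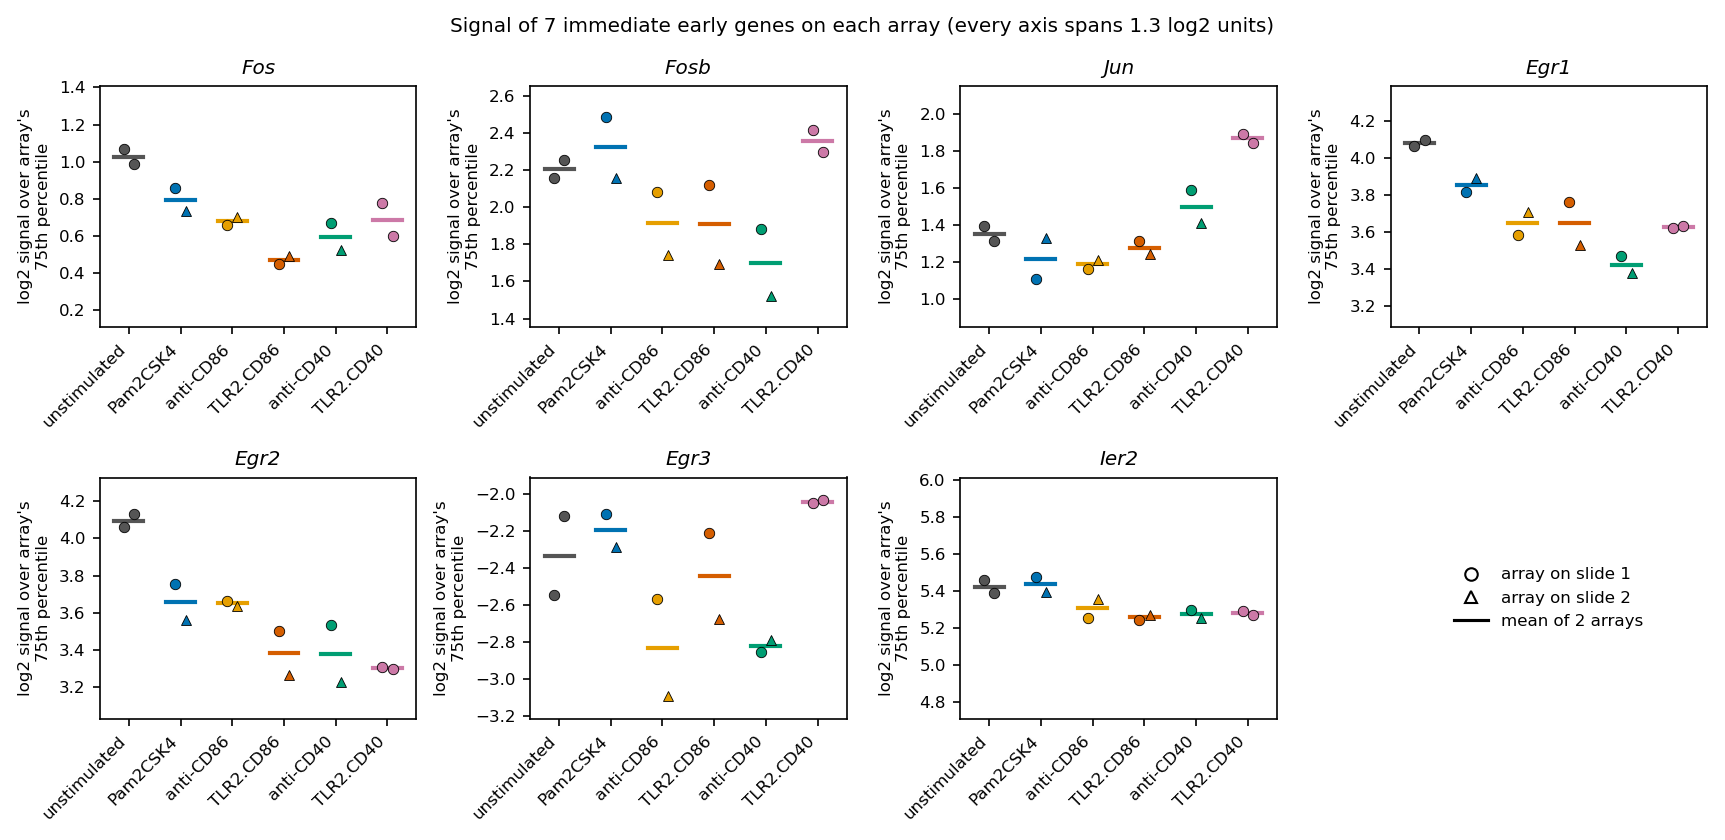
Log2 signal over the array's 75th percentile of the 7 unsaturated genes on each array, by group, with circles for slide 1, triangles for slide 2 and a line at the mean of 2 arrays. For Egr1, Egr2 and Fos both unstimulated arrays lie above all 10 stimulated arrays, and for Jun both TLR2.CD40 arrays lie above all others.

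Before the values, the sequences upstream of 3 of these genes are shown. These 3 were picked by their direction of change, a fall of Fos and Egr2 and a rise of Jun. The sequences are the 250 bases before the annotated start in RefSeq (build GRCm38.p6). Such a window was used for 7 of the 10 genes, not for Egr1, Egr3 or Ier2. Egr2 has 5 listed starts, and the middle one by position is shown. Fos lies at chr12:85473640-85473889 (plus strand), Egr2 at chr10:67537619-67537868 (plus strand) and Jun at chr4:95052223-95052472 (minus strand, written 5′ to 3′ along the gene). Capitals mark TGACG, the core of the cyclic AMP response element, on either strand, the sequence TGACNTCA, and the CArG box, the core of the serum response element.
Fos: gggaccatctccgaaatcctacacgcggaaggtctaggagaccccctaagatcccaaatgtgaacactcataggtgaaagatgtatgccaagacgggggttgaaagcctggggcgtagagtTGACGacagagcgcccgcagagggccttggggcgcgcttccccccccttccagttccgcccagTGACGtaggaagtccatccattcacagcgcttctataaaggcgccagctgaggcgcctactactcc
Egr2: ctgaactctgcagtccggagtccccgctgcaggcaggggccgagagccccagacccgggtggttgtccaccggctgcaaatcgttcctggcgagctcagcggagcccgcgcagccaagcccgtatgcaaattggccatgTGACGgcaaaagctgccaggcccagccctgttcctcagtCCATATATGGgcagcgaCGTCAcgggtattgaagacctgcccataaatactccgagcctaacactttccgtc
Jun: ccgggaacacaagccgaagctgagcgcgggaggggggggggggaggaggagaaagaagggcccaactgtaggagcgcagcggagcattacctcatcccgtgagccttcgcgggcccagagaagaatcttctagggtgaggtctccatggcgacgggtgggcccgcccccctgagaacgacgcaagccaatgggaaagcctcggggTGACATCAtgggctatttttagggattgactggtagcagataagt

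Fos and this Egr2 window each held 2 matches to TGACG, at positions -129 and -66 before the start of Fos and -111 and -55 before that of Egr2, whereas the Jun window held none. A match to TGACG was present in 17.8% of the 32851 windows of this length. Jun held 1 match to TGACNTCA, at position -45, a motif present in 7.49% of windows. The CArG box was found at position -72 of the Egr2 window, a motif present in 1.47% of all windows. It was in 4 of the 5 Egr2 windows, but some of these overlap and share the same box. Among the other genes with a window, TGACG had 1 match in Fosb, 1 in Junb and 4 in Nr4a1, Jund held none of these motifs, and no window of these genes held TGANTCA, the AP-1 element, present in 6.75% of windows. These are matches of letters and the arrays do not measure binding. Whether any motif bears on the changes of these genes was not tested.

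Fos encodes the FOS subunit of AP-1. It measured 1.07 and 0.99 on the unstimulated arrays, 0.86 and 0.73 with Pam2CSK4, 0.66 and 0.70 with anti-CD86, 0.45 and 0.49 with TLR2.CD86, 0.67 and 0.52 with anti-CD40, and 0.78 and 0.60 with TLR2.CD40. Every stimulated array lay below both unstimulated arrays, and both TLR2.CD86 arrays lay below all others. In the order of the group means only the first step, from unstimulated cells to Pam2CSK4, and the last, from anti-CD40 to TLR2.CD86, had arrays that did not overlap. Against unstimulated cells Fos fell in TLR2.CD86 (log2 fold change -0.56 ± 0.11 SE, limma adjusted p = 0.0265) and in anti-CD40 (-0.43 ± 0.11, adjusted p = 0.0393). It did not pass in anti-CD86 (-0.35, adjusted p = 0.128), TLR2.CD40 (-0.34, adjusted p = 0.0792) or Pam2CSK4 (-0.23, adjusted p = 0.354).

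Egr1 encodes the zinc finger factor that is the usual marker of early antigen receptor signaling. It measured 4.07 and 4.09 on the unstimulated arrays, 3.82 and 3.89 with Pam2CSK4, 3.58 and 3.71 with anti-CD86, 3.76 and 3.53 with TLR2.CD86, 3.47 and 3.38 with anti-CD40, and 3.62 and 3.63 with TLR2.CD40. The unstimulated arrays were the highest and the anti-CD40 arrays the lowest, and between them the anti-CD86, TLR2.CD86 and TLR2.CD40 arrays overlapped, with means of 3.65, 3.65 and 3.63. Egr1 fell in anti-CD40 (-0.66 ± 0.12 SE, adjusted p = 0.0113) and TLR2.CD40 (-0.46 ± 0.12, adjusted p = 0.03). In TLR2.CD86 the value was -0.43 ± 0.12 with an adjusted p of 0.0509, just outside the threshold, and in anti-CD86 it was also -0.43, with an adjusted p of 0.0865.

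Egr2 encodes a factor best known in lymphocytes for limiting responses after antigen receptor signaling. It measured 4.06 and 4.13 on the unstimulated arrays, 3.75 and 3.56 with Pam2CSK4, 3.66 and 3.64 with anti-CD86, 3.50 and 3.26 with TLR2.CD86, 3.53 and 3.23 with anti-CD40, and 3.31 and 3.29 with TLR2.CD40. Egr2 had the widest range of group means of the 7 genes, 0.79, and its unstimulated mean stood 0.44 above the next group. It fell in TLR2.CD40 (-0.79 ± 0.14 SE, adjusted p = 0.0077), anti-CD40 (-0.72 ± 0.14, adjusted p = 0.0166) and TLR2.CD86 (-0.71 ± 0.14, adjusted p = 0.0247), a level 1.64 to 1.73 times lower. Anti-CD86 and Pam2CSK4 each gave -0.44 (adjusted p = 0.121 and 0.23).

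These 3 genes, of 7, had all 10 stimulated arrays below both unstimulated arrays, a pattern that 16.6% of the probes tested also had. None of the 7 had the opposite pattern, but its share of all probes was not counted, so this has no comparison. The contrasts against unstimulated cells share the same 2 control arrays. Sums of NK, T cell and myeloid markers were likewise highest on the unstimulated arrays. Whether these sums followed the 3 genes among the stimulated groups was not tested. Each sum follows its brightest genes, Mpo and S100a8 for the myeloid sum. The linear sum of the 7 NK markers was 19.4 to 19.6 on the unstimulated arrays and 11.4 to 16.7 on the stimulated arrays. That of the 8 T cell markers was 33.03 to 33.4 against 20.8 to 29.8. That of the 9 unsaturated myeloid markers was 329 to 331 against 180 to 258, without overlap in each of these sums. In TLR2.CD86 against unstimulated cells 1 T cell marker was called higher (Cd4) and 1 lower, beside 4 NK and 5 myeloid markers lower. There 10.8% of all probes were called. The sum of the red cell markers, 84.6 to 85.0, lay inside the stimulated range of 58.4 to 106. The sum of the 8 unsaturated B cell markers, 168 to 169 on the unstimulated arrays, lay inside the stimulated range of 152 to 230. The part of these other cells in the fall of Fos, Egr1 and Egr2 was not tested.

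Jun encodes the JUN subunit of AP-1. It measured 1.40 and 1.31 on the unstimulated arrays, 1.11 and 1.33 with Pam2CSK4, 1.16 and 1.21 with anti-CD86, 1.31 and 1.24 with TLR2.CD86, 1.59 and 1.41 with anti-CD40, and 1.89 and 1.84 with TLR2.CD40. Both TLR2.CD40 arrays lay above all others, and the TLR2.CD40 mean was 0.37 above that of anti-CD40, the next group. Jun rose in TLR2.CD40 against unstimulated cells (0.51 ± 0.12 SE, adjusted p = 0.0216), against Pam2CSK4 (0.65 ± 0.12, adjusted p = 0.0142) and against TLR2.CD86 (0.59 ± 0.12, adjusted p = 0.0175). Its difference from anti-CD40 alone was 0.37 ± 0.12 and did not pass (adjusted p = 0.167). Neither did the interaction of CD40 and TLR2, the part of the joint change beyond the sum of both single changes, which was 0.50 ± 0.17 (adjusted p = 0.19).

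Fosb encodes a FOS family subunit of AP-1. It measured 2.16 and 2.25 on the unstimulated arrays, 2.49 and 2.16 with Pam2CSK4, 2.08 and 1.75 with anti-CD86, 2.12 and 1.69 with TLR2.CD86, 1.88 and 1.52 with anti-CD40, and 2.41 and 2.30 with TLR2.CD40. In each group with an array on both slides the slide 2 array was the lower. Without the slide term Fosb passed in no comparison. With slide as a block it was called in 5: higher in Pam2CSK4 than in unstimulated cells (0.30 ± 0.07 SE, adjusted p = 0.0414), lower in anti-CD40 than in unstimulated cells (-0.32 ± 0.07, adjusted p = 0.0111), lower in TLR2.CD86 than in Pam2CSK4 (-0.41 ± 0.06, adjusted p = 0.0169), and higher in TLR2.CD40 than in anti-CD40 (0.47 ± 0.07, adjusted p = 0.00776) and than in TLR2.CD86 (0.27 ± 0.07, adjusted p = 0.0249). Within slides, TLR2.CD86 minus Pam2CSK4 was -0.36 on slide 1 and -0.46 on slide 2, with 1 array of each group on each slide.

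Egr3 encodes an EGR family factor and had the lowest intensity of the probes, with processed signals of 41.5 to 73.4 where the dimmest probe called well above background measured 19.5 to 32.9, by array. It measured -2.55 and -2.12 on the unstimulated arrays, -2.11 and -2.29 with Pam2CSK4, -2.57 and -3.09 with anti-CD86, -2.21 and -2.67 with TLR2.CD86, -2.85 and -2.79 with anti-CD40, and -2.05 and -2.03 with TLR2.CD40. Both TLR2.CD40 arrays were the highest of all. The unstimulated arrays alone differed by more than 0.4, and no comparison of Egr3 passed, with TLR2.CD40 against anti-CD40 at 0.78 ± 0.23 SE (adjusted p = 0.131). With slide as a block that value was 0.64 ± 0.19 (adjusted p = 0.0703).

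Ier2 encodes a small nuclear regulator that is not a classical DNA-binding factor. Its brightest probe ranged from 5.25 to 5.48 over the 12 arrays, the narrowest range of the 7 genes, and passed in no comparison. Its other probes differed from it. The dimmest of the 3 measured -0.71 on both unstimulated arrays, -0.20 and 0.06 with Pam2CSK4, -0.59 and -0.36 with anti-CD86, -0.06 and 0.30 with TLR2.CD86, -0.61 and -0.38 with anti-CD40, and -0.66 and -0.81 with TLR2.CD40. Both arrays of each Pam2CSK4 and TLR2.CD86 group lay above all other arrays on that probe. It was higher in TLR2.CD86 than in unstimulated cells (0.83 ± 0.17 SE, adjusted p = 0.0263), and lower in TLR2.CD40 than in TLR2.CD86 (-0.85 ± 0.17, adjusted p = 0.0164) and than in Pam2CSK4 (-0.66 ± 0.17, adjusted p = 0.0462). With slide as a block that probe was also higher in Pam2CSK4 than in unstimulated cells (0.50, adjusted p = 0.0141) and in TLR2.CD86 than in anti-CD86 (0.59, adjusted p = 0.0094), and its interaction of CD40 and TLR2 passed (-0.61, adjusted p = 0.0244). In TLR2.CD86 against unstimulated cells and in TLR2.CD40 against TLR2.CD86 and Pam2CSK4 the brightest probe gave -0.17, 0.02 and -0.16 without the slide term. The second probe passed in none without the slide term, and with it only in TLR2.CD40 against unstimulated cells (0.24, adjusted p = 0.0246). All 3 probes are annotated to the same transcript, and only the brightest contains the polyadenylation signal AATAAA.

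**Figure D3:**
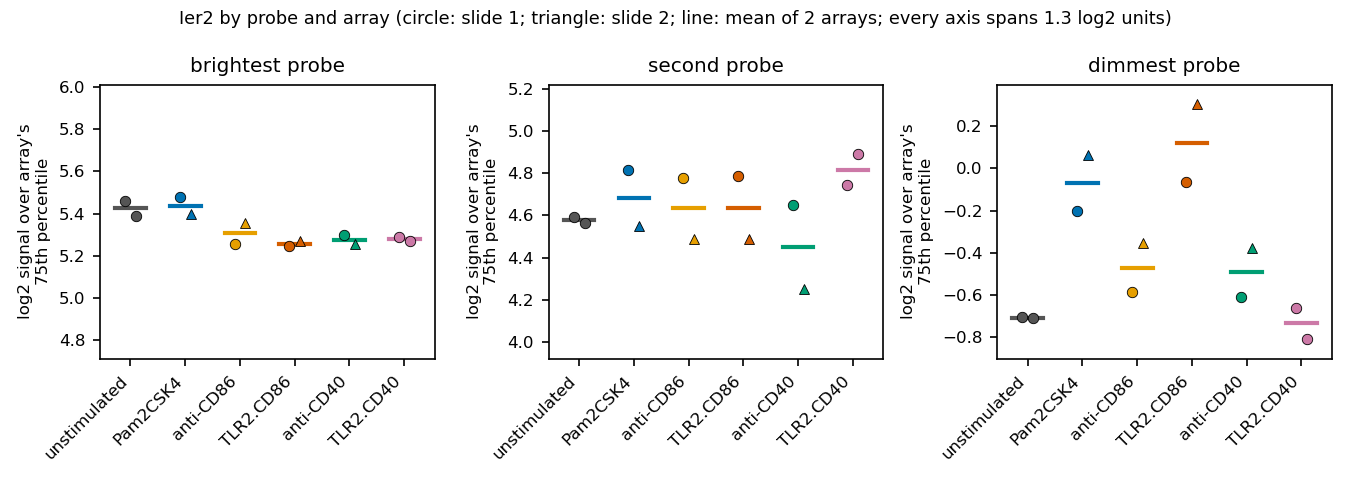
Log2 signal over the array's 75th percentile of the 3 Ier2 probes on each array, by group, with circles for slide 1, triangles for slide 2 and a line at the mean of 2 arrays. The dimmest probe is highest with Pam2CSK4 and TLR2.CD86, whereas the brightest probe spans only 5.25 to 5.48.

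By comparison, none of the 7 genes was called in Pam2CSK4 against unstimulated cells, where limma called 0.146% of all probes. Before adjustment 1 gene, Egr2, had a p under 0.05. Anti-CD86 also had none called, against 2.17% of probes, with Fos, Egr1 and Egr2 under 0.05 before adjustment. A gene that was not called is not thereby shown to be unchanged. TLR2.CD86 lowered 2 (Egr2 and Fos), against 10.8% of probes. Anti-CD40 lowered 3 (Egr1, Egr2 and Fos), against 16.8%. TLR2.CD40 lowered 2 (Egr1 and Egr2) and raised 1 (Jun), against 18.2%. The median log2 fold change of the 7 genes was -0.14, -0.35, -0.30, -0.49 and -0.14 in these 5 comparisons in the same order, beside medians of all probes of -0.07, -0.05, -0.03, -0.02 and 0.01.

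**Figure D4:**
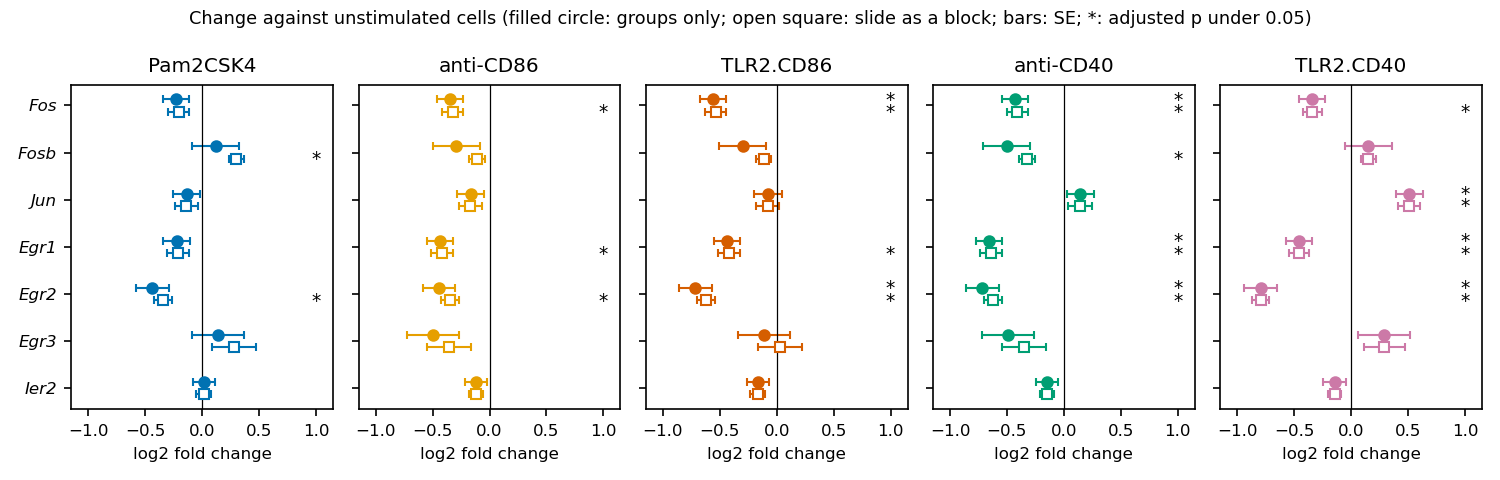
Log2 fold change against unstimulated cells of the 7 unsaturated genes in each stimulated group (bars, SE), from the fit with groups only (filled circles) and with slide as a block (open squares), where a star marks an adjusted p under 0.05. Values of Fos, Egr1 and Egr2 lie left of 0 in every panel, and Jun lies right of 0 with a star only in TLR2.CD40.

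Between stimuli few of the 7 genes passed. No gene passed between TLR2.CD86 and Pam2CSK4 (0.0633% of probes called, Fos under 0.05 before adjustment), between TLR2.CD86 and anti-CD86 (0.225% of probes, none under 0.05) or between TLR2.CD40 and anti-CD40 (2.9% of probes, with Fosb, Jun and Egr3 under 0.05 before adjustment). Jun was the only gene called between TLR2.CD40 and Pam2CSK4, where 9.97% of probes were called, and between TLR2.CD40 and TLR2.CD86, with 12.3%. The interaction of CD86 and TLR2 called none of the 7 (0.019% of probes, no gene under 0.05 before adjustment), and the interaction of CD40 and TLR2 called none (1.16% of probes, with Jun and Egr1 under 0.05 before adjustment).

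With slide as a block the calls against unstimulated cells became 2 for Pam2CSK4 (Fosb higher and Egr2 lower, 11.1% of probes), 3 for anti-CD86 (Fos, Egr1 and Egr2 lower, 28.5%), 3 for TLR2.CD86 (the same 3 genes lower, 35.1%), 4 for anti-CD40 (these 3 and Fosb lower, 37.3%) and 4 for TLR2.CD40 (these 3 lower and Jun higher, 47.5%). Between stimuli, 1 gene was then called between TLR2.CD86 and Pam2CSK4 (Fosb lower, 11% of probes), none between TLR2.CD86 and anti-CD86 (7.74%), 2 between TLR2.CD40 and Pam2CSK4 (Jun higher and Egr2 lower, 31.5%), 1 between TLR2.CD40 and anti-CD40 (Fosb higher, 15.2%) and 2 between TLR2.CD40 and TLR2.CD86 (Jun and Fosb higher, 34.6%). On slide 1 alone, which holds both unstimulated and both TLR2.CD40 arrays, Egr2 gave -0.79 (adjusted p = 0.00703), Egr1 -0.46 (adjusted p = 0.0117) and Jun 0.51 (adjusted p = 0.0131) in TLR2.CD40. The other groups have 1 array each on slide 1, assumed to vary like the unstimulated and TLR2.CD40 pairs, and there Fos gave -0.58 in TLR2.CD86 (adjusted p = 0.0488) and -0.36 in anti-CD40 (adjusted p = 0.102). Scaling each array to its median in place of its 75th percentile left none of the 7 genes called in any comparison. The fold changes did not shrink throughout, since Egr2 in anti-CD40 went from -0.72 ± 0.14 SE to -1.28 ± 0.47. Separately, leaving out either unstimulated array ended each call against unstimulated cells made without the slide term.

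Over the 12 arrays Fos, Egr1, Egr2 and Ier2 varied together, with pairwise Pearson r of 0.73 to 0.85, and Fosb varied with Egr3 (r = 0.86), whereas Jun had r between -0.42 and 0.33 with the other 6. The arrays share slides and groups, so these r are descriptions. Of 9888 named genes measured without saturation on all 12 arrays, those most like Egr2 were Adh5 (r = 0.991), Chsy1 (0.991) and Dennd1c (0.987). Most like Egr3 were Arhgap22 (0.894), Niacr1 (0.887) and Slc2a6 (0.887), and most like Jun were Fcf1 (0.956), Tfrc (0.947) and Fam71f2 (0.943).

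Other genes of the pathway are given from lists by family. Of the other AP-1 family genes, 12 of 14 were tested and none was called with Pam2CSK4 (0.146% of all probes). Batf, an AP-1 factor that B cells need for class switching, rose in anti-CD40 (1.45 ± 0.14 SE, adjusted p = 0.00153) and TLR2.CD40 (2.08 ± 0.14, adjusted p = 0.000116). Maff, a small MAF protein, rose in both (1.36 and 1.45) and fell in anti-CD86 (-0.67 ± 0.12, adjusted p = 0.0371). In TLR2.CD86 Fosl2, a FOS family member, fell (-0.63 ± 0.10, adjusted p = 0.0156), as did Maf (-0.74). Jdp2, an AP-1 repressor, fell in anti-CD40 (-0.73), and Mafk, a small MAF protein, fell in TLR2.CD40 (-0.81). Of the 12 genes, 1 was higher and 3 lower in TLR2.CD86 (10.8% of all probes called), 2 higher and 2 lower in anti-CD40 (16.8%) and 2 higher and 1 lower in TLR2.CD40 (18.2%).

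Among the other immediate early genes, 26 of 27 were on the array and 23 were tested without saturation. None was called with Pam2CSK4 or anti-CD86 (0.146% and 2.17% of all probes). TLR2.CD86 called 2, both lower, beside 10.8% of all probes. They were Nfil3 (-0.58 ± 0.13 SE, adjusted p = 0.0288) and Plk2 (-0.48 ± 0.12, adjusted p = 0.0467). Anti-CD40 called 3 higher and 7 lower of the 23, beside 16.8% of all probes, and TLR2.CD40 called 5 higher and 4 lower, beside 18.2%. Myc, the growth regulator, rose in anti-CD40 (1.60 ± 0.18, adjusted p = 0.00242) and TLR2.CD40 (2.29 ± 0.18, adjusted p = 0.000242). Gadd45b, a stress and NF-kappaB target, rose in both (1.13 and 1.60), and Btg2, an antiproliferative gene, fell in both (-1.04 and -0.98). Klf10 was higher in TLR2.CD40 than in Pam2CSK4 (0.99) and TLR2.CD86 (1.23).

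Of 20 MAP kinase cascade genes tested, TLR2.CD86 called 1 higher and 1 lower, beside 10.8% of all probes. The higher was Map2k7, an activator of JNK (0.78 ± 0.19 SE, adjusted p = 0.041). The lower was Rps6ka5, the kinase MSK1 (-0.50 ± 0.12, adjusted p = 0.0409). Anti-CD40 called 1 higher and 2 lower (16.8% of all probes), and TLR2.CD40 called 2 higher and 2 lower (18.2%). Map3k8, the kinase Tpl2 that feeds ERK, rose in anti-CD40 (0.75 ± 0.17, adjusted p = 0.0243) and TLR2.CD40 (1.19 ± 0.17, adjusted p = 0.00309). Mapk14, p38 alpha, fell in the same groups (-0.90 and -0.56), as did Rps6ka5 (-0.80 and -0.66). Braf was higher in TLR2.CD40 than in Pam2CSK4 (0.50), and Map2k1 was higher in TLR2.CD40 than in TLR2.CD86 (0.87).

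Of 14 SRF and CREB family regulators tested, none was called with Pam2CSK4, anti-CD86 or TLR2.CD86 (0.146%, 2.17% and 10.8% of all probes). In anti-CD40 2 were higher and 4 lower (16.8% of all probes), and in TLR2.CD40 2 were higher and 2 lower (18.2%). Elk3, a ternary complex factor that acts with SRF and can repress, fell in anti-CD40 (-1.16 ± 0.17 SE, adjusted p = 0.00682) and TLR2.CD40 (-1.20 ± 0.17, adjusted p = 0.00336). Crem (-0.96) and Mef2c (-0.81) fell in anti-CD40. In TLR2.CD40 Mkl2, an SRF coactivator, fell (-0.97) and Crtc2, a CREB coactivator, rose (0.74). Creb1 was higher in TLR2.CD40 than in Pam2CSK4 (0.69) and TLR2.CD86 (0.62). Of 6 partners and corepressors of EGR and NR4A proteins tested, Nab1, an EGR corepressor, fell in TLR2.CD86 (-0.50 ± 0.11, adjusted p = 0.0315), and Rxra, a partner of NR4A1, fell in anti-CD86 (-0.58), TLR2.CD86 (-0.69) and TLR2.CD40 (-0.56). None of the 6 was called in anti-CD40, beside 16.8% of all probes.

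The list counts above are from the fit without slide, and the slide block changed them. With it, Pam2CSK4 had 3 higher and 0 lower of the other AP-1 genes, 7 and 2 of the other immediate early genes, 2 and 1 of the MAP kinase genes, 1 and 1 of the SRF and CREB regulators, and 0 and 1 of the partners. For anti-CD86 these counts were 2 and 5, 2 and 6, 4 and 2, 1 and 2, and 0 and 2. For TLR2.CD86 they were 3 and 4, 2 and 7, 3 and 4, 2 and 6, and 0 and 2. Anti-CD40 had 3 and 6, 5 and 8, 5 and 10, 2 and 6, and 0 and 2, and TLR2.CD40 had 3 and 4, 8 and 8, 4 and 7, 2 and 8, and 0 and 3. The shares of all probes called with the block, from 11.1% for Pam2CSK4 to 47.5% for TLR2.CD40, are those given above.

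**Figure D5:**
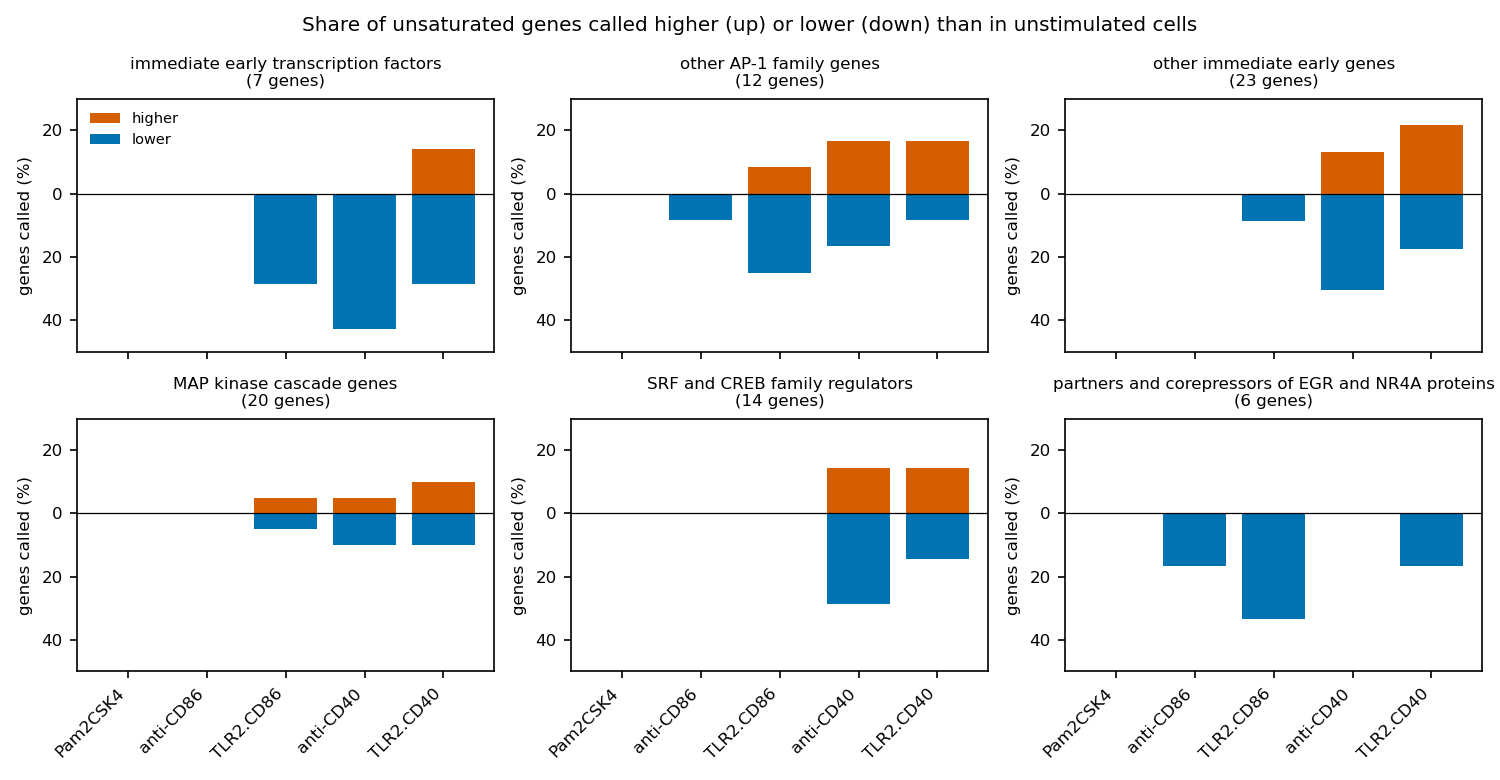
Percent of the unsaturated genes of each list called higher (upward bars) or lower (downward bars) than in unstimulated cells, by stimulus, from the fit without slide. Pam2CSK4 has no bar in any list, and the immediate early transcription factors have an upward bar only in TLR2.CD40, for Jun.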

How the data were processed

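Per the labels, Cy3-labelled cRNA of each sample was hybridised to a custom Agilent mouse array in one colour. The authors deposited scanner files with an intensity per spot (the processed signal, corrected for background by Feature Extraction), flags for outlier, saturated and well-above-background spots, and a table of log2 values. Each column of that log2 table followed the scanner signal on a log2 scale after an offset close to the array's 75th percentile (r of at least 0.99998). Arrays have no read depth, and their number, 2 per group, limits the precision.

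Control and outlier spots were left out, spots of a probe averaged, and log2 processed signals scaled to each array's 75th percentile. A probe was kept if some group had it well above background on each of its arrays, which held for 31669 of 61307, and 31601 without a missing value were tested. Limma 3.58.1 in R 4.3.3 was fitted with 1 coefficient per group over 12 arrays, with 12 contrasts and Benjamini-Hochberg adjustment over all probes (threshold 0.05). It was tested on simulated data with known changes and independent noise, which held no slide effect, unlike these arrays. The methods name a one way test without a slide term, so slide as a block was an alternative.

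Named were all 10 genes, up to 3 called genes of each other list and comparison with the largest change, and the 3 genes most alike in pattern. A few genes that this rule names are not reported here. The genes and lists were chosen with earlier results of these data known. Differences between replicates correlated at 0.538 to 0.674 among the 4 groups with an array on each slide and at -0.107 to 0.0665 otherwise. In these 4 groups replicate number and slide coincide, so a shared slide and a shared origin of the cells cannot be told apart. Promoter windows are from RefSeq, build GRCm38.p6. Doses were not used here.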

Additional observations from a re-analysis of the deposited data

How the results depend on the processing

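No value called without the slide term changed sign under any alternative, whereas Fosb in Pam2CSK4, called with the block only, was -0.08 with median normalization. Median normalization left 0 called in TLR2.CD86, anti-CD40 and TLR2.CD40 against unstimulated cells and 0 in TLR2.CD40 against Pam2CSK4 and TLR2.CD86, and moved the median log2 fold change of all probes in anti-CD40 from -0.02 to -0.58 and in TLR2.CD86 from -0.03 to -0.32. Testing every probe without a filter left 0, 0 and 1 against unstimulated cells and 0 in both other comparisons. Slide as a block gave 2 for Pam2CSK4, 3 for anti-CD86, 1 for TLR2.CD86 against Pam2CSK4, and 2, 1 and 2 for TLR2.CD40 against Pam2CSK4, anti-CD40 and TLR2.CD86, with 5 genes differing among the 6 groups, against 3. The same block without anti-CD40 replicate 2, an alternative chosen after seeing the data, gave 1, 3, 1, 2, 1 and 2 in these 6 comparisons and 6 among the groups. Quantile normalization, normexp and slide 1 alone each gave 2 for TLR2.CD40 against Pam2CSK4. The replicate number as a block gave 1 for anti-CD86 and 1 for TLR2.CD40 against anti-CD40 and 5 genes among the groups, and changed no other count by over 1.5 times. Among the groups, median normalization and no filter each left 0, and the methods' one way test called 4. For the counts among the groups, the share of all probes is not given under the alternatives. The cause of these differences was not tested.

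Leaving out 1 array at a time gave 0 to 3 genes in each of TLR2.CD86, anti-CD40 and TLR2.CD40 against unstimulated cells and 0 to 1 for TLR2.CD40 against Pam2CSK4 and TLR2.CD86, and 0 in the other comparisons. Among the 6 groups it gave 0 to 3, with 0 without either unstimulated, anti-CD86 or TLR2.CD40 array. The count against unstimulated cells was 0 without either unstimulated array, in TLR2.CD86 also without its replicate 2 or either TLR2.CD40 array (1 without its replicate 1), in anti-CD40 without its replicate 2, and in TLR2.CD40 without either of its arrays. Jun lost its call against Pam2CSK4 without Pam2CSK4 replicate 1 or either TLR2.CD40 array, and against TLR2.CD86 without any array of these groups. Over 35 single values and their 810 alternatives, 714 kept direction and side of the threshold, 54 lost the call, 25 gained one and 17 moved. Most of the 35 values were not called, and only a called value can lose its call. Called values kept their call in 11 of 23 alternatives (Fos in anti-CD40) to 18 of 23 (such as Egr2 in TLR2.CD40).

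Counts over all probes depended on the same settings. In TLR2.CD86, anti-CD40 and TLR2.CD40 against unstimulated cells they were 3410, 5323 and 5763, then 11084, 11777 and 14997 with slide as a block, 7788, 9427 and 8542 with the replicate block, 132, 348 and 464 with median normalization and 26, 1112 and 2486 without a filter. The share of higher calls in TLR2.CD86 went from 31.6% to 62.9% with median normalization. Saturation at the scanner's ceiling limits Junb, Jund and Nr4a1, and nearness to background limits Egr3.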
